A study of Mus musculus with 6 samples.

Results

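The lysosomal proteases and secreted lysosomal proteins described here are 10 mouse genes: the cathepsins Ctsa, Ctsb, Ctsc, Ctsd, Ctsh, Ctss and Ctsz, the asparaginyl endopeptidase Lgmn, and the secreted lysosomal proteins Psap and Grn. They were taken by name, not by a threshold on their values, from the 54446 genes listed, and all 10 were among the 12322 genes that entered the test, those averaging 10 or more normalized counts over the libraries. Their RNA was measured in splenic B cells of Tent5c KO mice and of their WT littermates, with 3 libraries of each genotype. Tent5c encodes a cytoplasmic poly(A) polymerase, and the KO allele, made by CRISPR editing of the germline, is carried by every cell of the animal and not by B cells alone. All mice had a mixed C57BL/6J X CBA background, were 12 to 15 weeks old and were cohoused littermates from heterozygous matings. From each spleen naive B cells were isolated by negative selection, and both groups then received the same treatment, 7 days with IL-4 at 20 ng/ml and LPS at 20 µg/ml, so that no unstimulated cells are part of the comparison. Total RNA was depleted of ribosomal RNA and sequenced as paired reads of 75 nucleotides.

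Lysosomal proteases are made on ribosomes at the endoplasmic reticulum, where a signal peptide directs the chain into the lumen. They are glycosylated, sorted through the Golgi with the help of mannose 6-phosphate receptors or sortilin, and most gain their activity by cleavage of a propeptide in the acidic endosome and lysosome. In B cells they degrade internalised antigen and the invariant chain Cd74, steps through which MHC class II molecules receive their peptides. The transcription factors TFEB and TFE3 bind an E-box with the core CACGTG, and the promoters of many lysosomal genes hold such a sequence.

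Windows from 250 bases before to 50 bases after the annotated starts (RefSeq, GRCm38.p6) covered 8 of the 10 genes, all but Ctsb and Ctsh, in 11 windows. The palindrome CACGTG, which reads the same on both strands, was present in 3 of these 8 genes (37.5%), Ctsa, Ctsd and Lgmn, and in 27.3% of their windows, against 8.09% of the 27025 genes with a window and 7.15% of their 32851 windows. The longer palindrome TCACGTGA, which contains the shorter one, was present in 2 of the 8 genes (25%), Ctsa and Ctsd, and in 1.12% of all genes with a window. The matching stretches are given because they are a feature of Ctsa, Ctsd and Lgmn that had no part in the choice of the genes; the other 5 genes with a window had no match. Each is written 5′ to 3′ on the strand of the gene with CACGTG in capitals, and the offset is the position of the first capital relative to the annotated start.
Ctsa, chr2:164833749-164833778, plus strand, offset -12: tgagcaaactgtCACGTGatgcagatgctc
Ctsa, chr2:164833766-164833795, plus strand, offset 5: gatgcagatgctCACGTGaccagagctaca
Ctsd, chr7:142387908-142387937, minus strand, offset -98: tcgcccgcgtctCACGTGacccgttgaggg
Ctsd, chr7:142388055-142388077, minus strand, offset -245: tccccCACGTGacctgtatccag
Lgmn, chr12:102439124-102439153, minus strand, offset -49: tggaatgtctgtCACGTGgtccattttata
Both Ctsa stretches, which overlap each other, and the Ctsd stretch at offset -98 hold the longer palindrome. For Ctsa and Lgmn the match lay at only 1 of their 2 annotated starts. A match describes the letters in the window and was not tested as a binding site.

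The libraries held 5393558 to 6793520 fragments on genes (median 6607728.5), so that a floor of 3 fragments corresponded to 2.72 to 3.61 normalized counts, far below the level of every one of the 10 genes. Intervals from these fragments treat each fragment as a separate molecule and cover counting error only, and no molecular identifiers were used. Tent5c itself was at 1255, 767 and 1585 normalized counts in the libraries labelled WT 1, 2 and 3 and at 1993, 993 and 1170 in those labelled KO 1, 2 and 3. The transcript of the targeted gene therefore does not check the genotype labels, and KO and WT below stand for the libraries so labelled. B cell markers such as Ms4a1 were abundant in all 6 libraries, and the sum of 8 B cell markers was 30013 to 34452 in WT and 31308 to 35488 in KO. Of 13 macrophage and monocyte markers 2 averaged 10 or more normalized counts, with a summed level over the list of 65.9 to 101 in WT and 19.1 to 138 in KO, and these 2, Lyz2 and Adgre1, were detected in every library with means of 44.7 and 29.7 normalized counts while Fcgr1, C1qa and C1qc were at 0. The sum of 6 plasma cell markers was 7906 to 18378 in WT and 8049 to 15767 in KO. Xbp1 and Jchain had the highest means of this list, 4871 and 3977 normalized counts. Sdc1 and Tnfrsf17, named after their values were seen, had means of 46.8 and 0.64. Of 7 dendritic cell markers only Flt3 and Zbtb46 averaged 10 or more normalized counts, with Clec9a and Siglech at 0 and a summed level of 470 to 701 in WT and 612 to 1002 in KO. The 8 neutrophil markers summed to at most 1.91 normalized counts in any library.

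None of the 10 genes passed the test between genotypes. In limma, on log2(normalized count + 1) with the littermate pair as a block, the adjusted p was 0.970 for each of them, and the share of all 12322 genes called lower in KO was itself 0%. Across all genes 373 had an unadjusted p under 0.05 with a lower level in KO and 206 with a higher one, and 144 of the 373 were immunoglobulin genes. Under scaling to total counts the split was 294 lower and 302 higher. The 10 genes nevertheless lay on 1 side: every one had a negative log2 fold change (KO minus WT), from -0.35 for Ctsd to -0.044 for Psap, with a median of -0.15, whereas 49.8% of all genes had a negative value and the median over all genes was 0.00067. The 10 genes were chosen with earlier results of these data known, so no test was made over them as a list. All but Ctsc and Grn, that is 8 genes, had a lower level in KO than in the WT littermate in all 3 pairs, which 13.1% of all genes did. Ctsh and Ctss had groups that did not overlap, with each KO library below each WT library, as for 3.44% of all genes. Ctsd, Ctsh and Ctss had an unadjusted p under 0.05 in limma, against a background of 3.03%. DESeq2 called 0 of the 10 genes lower and 0.222% of the 9894 genes for which it gave an adjusted p, and at an unadjusted p under 0.05 it had 1 of the 10, Ctss, against 1.79% of those genes. The edgeR test called 0 after adjustment and had 3 at that unadjusted level, against 2.99% of all genes. In limma that number was 2 of the 10, against 1.38%, without the littermate block, and 1 of the 10, Ctsd, against 2.39%, under scaling to total counts, where Ctsh and Ctss had unadjusted p-values of 0.0821 and 0.0717. In bulk RNA, fewer cells with a transcript and less of the transcript per cell cannot be told apart, and scaling to a common median hides any difference that most transcripts share.

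**Figure D1:**
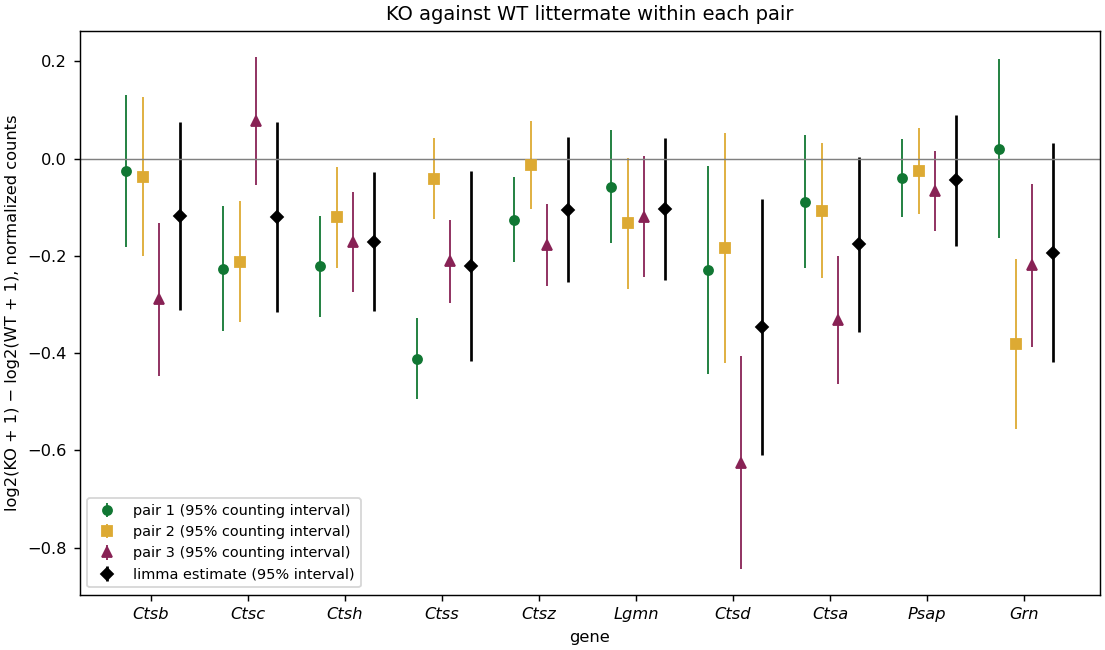
Log2 ratio of KO to WT normalized counts for each of the 10 genes in each of the 3 littermate pairs. Coloured points are pairs with 95% counting intervals, and black diamonds are the limma estimates with their 95% intervals. Of the 30 ratios 28 lie below 0, from -0.63 for Ctsd in pair 3 to 0.078 for Ctsc in pair 3, and 15 have an interval wholly below 0. The counting intervals leave out the spread between animals, and no share over all genes was computed for these counts.

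The plot of ratios by pair shows how much of each value rests on a single pair. Among the 30 ratios 28 were below 0 and 2 above, 15 had a 95% counting interval wholly below 0, and none had one wholly above. All 30 come from the same 6 libraries, and the intervals leave out the spread between animals. No share over all genes was computed for these counts, so they are not read as a result about the 10 genes. The counting error of 1 ratio was 0.041 to 0.12 on the log2 scale. Over the 10 genes the median log2 ratios of pairs 1 to 3 were -0.11, -0.11 and -0.19. Pair 3 gave the lowest ratio for 5 of the genes, pair 1 for 3 and pair 2 for 2. The WT library of pair 3 was the highest of the WT libraries for 7 of the 10 genes, and the KO library of the same pair the highest KO library for 6.

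Together the 10 genes took 0.205%, 0.193% and 0.218% of the fragments on genes in WT 1, 2 and 3 and 0.184%, 0.185% and 0.204% in KO 1, 2 and 3. The highest KO share therefore lay within the WT range. Summed normalized counts gave log2 ratios of -0.16, -0.088 and -0.17 in the 3 pairs.

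Levels differed far more between the genes than between the genotypes. Per kilobase of annotated exon, Ctss was highest in WT with 1787 ± 62.3 normalized counts (SD, n = 3), followed by Ctsz with 1497 ± 189 and Psap with 857 ± 94.3. Lgmn had 459 ± 53.0 and Ctsh 353 ± 19.3 normalized counts per kilobase. Ctsa (196 ± 28.8), Ctsc (175 ± 13.7), Grn (162 ± 30.5) and Ctsd (156 ± 28.2) formed a run of neighbours whose WT libraries overlapped each in turn, and Ctsb was lowest with 108 ± 12.2. Between the other neighbours in this order the WT libraries did not overlap. The KO libraries gave the same order of means. The place of Ctsd is uncertain, since it shares exon bases with another gene model. Per kilobase of its unshared exon bases Ctsd had a mean of 237 normalized counts in WT, above the value of Ctsa. Exon length counted every annotated isoform, so a gene with long rarely used exons has too low a value per kilobase.

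**Figure D2:**
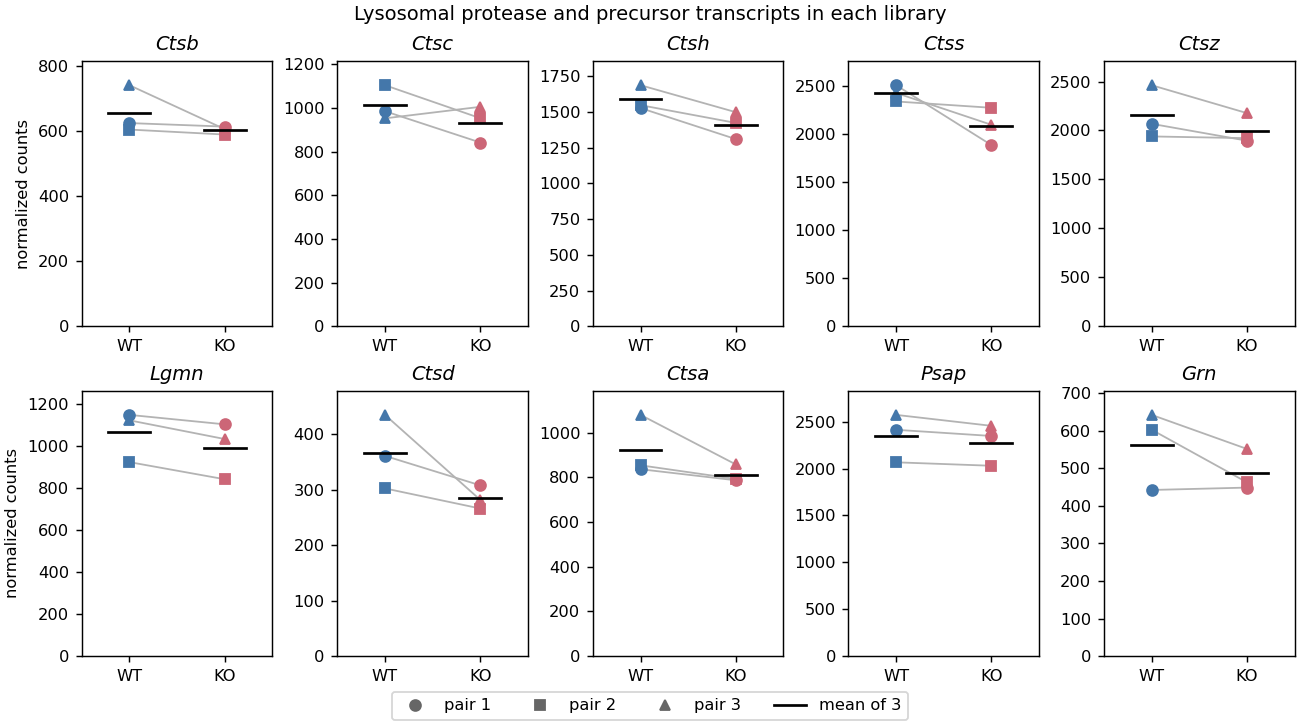
Normalized counts of the 10 genes in each library, 1 panel per gene, on linear axes that start at 0. Points are single WT and KO libraries with 1 shape per littermate pair, grey lines join littermates and black bars are means of 3 libraries. The groups overlap for every gene but Ctsh and Ctss.

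Ctss, Ctsh, Ctsb, Ctsc and Ctsz encode cysteine proteases of the papain family. Ctss (ENSMUSG00000038642, chr3:95526786-95556403 in GRCm38, plus strand) encodes the endopeptidase that carries out late steps of invariant chain cleavage in B cells and dendritic cells. It was at 2510, 2341 and 2430 normalized counts in WT 1, 2 and 3 and at 1888, 2275 and 2098 in KO 1, 2 and 3. All KO libraries lay below all WT libraries, with KO 1 farthest from its littermate. The mean was 2427 ± 84.6 (SD, n = 3) in WT and 2087 ± 194 in KO, 14.0% lower, for a log2 fold change of -0.22 (SE 0.081) with a 95% interval of -0.42 to -0.025 and an unadjusted p of 0.0323 in limma. The value moved with the pairs used: the log2 fold change was -0.13 without pair 1, -0.31 without pair 2 and -0.23 without pair 3.

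Ctsh (ENSMUSG00000032359, chr9:90054152-90076089, plus strand) encodes an aminopeptidase that trims peptides from their amino end. Its level was 1527, 1547 and 1687 normalized counts in WT and 1310, 1423 and 1498 in KO, in the order of replicates 1 to 3. The groups did not overlap, and the 3 pairs gave similar ratios of -0.22, -0.12 and -0.17 on the log2 scale. The mean of 1410 ± 94.8 in KO was 11.1% lower than the 1587 ± 87.0 in WT (SD, n = 3), and limma gave a log2 fold change of -0.17 (SE 0.059; 95% interval -0.31 to -0.028) with an unadjusted p of 0.0257. Of the genes with an unadjusted p under 0.05 it was the one whose value moved least when a pair was left out, between -0.20 and -0.15.

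Ctsb (ENSMUSG00000021939, chr14:63122462-63145923, plus strand), an endopeptidase and carboxypeptidase found in the lysosomes of most cells, had 624, 604 and 740 normalized counts in WT and 613, 589 and 606 in KO. The groups overlapped, and WT 3 stood above the other 5 libraries. Its log2 fold change was -0.12 (SE 0.081; limma 95% interval -0.31 to 0.076), and without pair 3 it was -0.031.

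Ctsc (ENSMUSG00000030560, chr7:88278085-88310888, plus strand) encodes dipeptidyl peptidase I, which activates granule serine proteases in cytotoxic and myeloid cells. It had 985, 1104 and 952 normalized counts in WT and 842, 953 and 1005 in KO. Pairs 1 and 2 had the lower value in KO and pair 3 the higher, so the direction was not shared. The log2 fold change was -0.12 (SE 0.081; limma 95% interval -0.32 to 0.075), moving to -0.22 without pair 3, to -0.067 without pair 1 and to -0.074 without pair 2.

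Ctsz (ENSMUSG00000016256, chr2:174427493-174439039, minus strand) encodes a carboxypeptidase. Its level was 2068, 1939 and 2462 normalized counts in WT and 1896, 1922 and 2177 in KO. Each KO library lay below its littermate, but the groups overlapped, and the range of the WT libraries was wider than the difference within any pair. The log2 fold change was -0.11 (SE 0.062) with a limma 95% interval of -0.25 to 0.044, and without pair 3 it was -0.069.

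Lgmn (ENSMUSG00000021190, chr12:102394084-102439813, minus strand) encodes legumain, a cysteine protease of a different family that cuts after asparagine and takes part in processing other cathepsins and antigens. It was at 1149, 924 and 1123 normalized counts in WT and at 1104, 843 and 1034 in KO. Pair 2 was the lowest in both groups, and within each pair KO was the lower. The difference of 6.75% between means corresponded to a log2 fold change of -0.10 (SE 0.061, limma 95% interval -0.25 to 0.043). It was smaller than the spread between pairs.

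Ctsd and Ctsa do not belong to the cysteine proteases. Ctsd (ENSMUSG00000007891, chr7:142375911-142388038, minus strand) encodes the main aspartic protease of the lysosome. It had 361, 302 and 435 normalized counts in WT and 308, 266 and 281 in KO. The groups overlapped through KO 1, which lay above WT 2, and WT 3 was the highest library by a wide margin. The mean was 366 ± 66.4 in WT and 285 ± 21.1 in KO (SD, n = 3), 22.1% lower, and this was the lowest of the 10 log2 fold changes at -0.35 (SE 0.11; 95% interval -0.61 to -0.082), with an unadjusted p of 0.0177 in limma. The 3 pairs gave -0.23, -0.18 and -0.63, and without pair 3 the log2 fold change was -0.21. Ctsd shares 808 of its exon bases (34.4%) on the same strand with the gene model Gm49369, which was listed at 0 in all 6 libraries, and a fragment that falls on both is assigned to neither under the usual counting rule, so its level is uncertain.

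Ctsa (ENSMUSG00000017760, chr2:164832873-164841032, plus strand) encodes a serine carboxypeptidase that also holds beta-galactosidase and neuraminidase in a stable complex. Its 837, 854 and 1080 normalized counts in WT compared with 787, 793 and 858 in KO. The groups overlapped through KO 3, and again WT 3 was highest. The log2 fold change was -0.18 (SE 0.075; limma 95% interval -0.36 to 0.0045), with -0.098 when pair 3 was left out.

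Psap and Grn encode proteins that are both secreted and delivered to the lysosome, where they are cut into smaller active units. Psap (ENSMUSG00000004207, chr10:60277627-60302597, plus strand) encodes prosaposin, the precursor of the saposins that assist sphingolipid hydrolases. It was at 2414, 2067 and 2573 normalized counts in WT and 2348, 2030 and 2456 in KO. The 2 groups nearly coincided, while each KO library was slightly below its littermate, by -0.040, -0.026 and -0.067 on the log2 scale. This was the smallest difference among the 10 genes, 3.11% between means, with a log2 fold change of -0.044 (SE 0.056) and a limma 95% interval of -0.18 to 0.091. It was -0.010 under scaling to total counts and -0.013 after quantile normalization.

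Grn (ENSMUSG00000034708, chr11:102430315-102437048, plus strand) encodes progranulin, the precursor of the granulins, which reaches the lysosome bound to sortilin or to prosaposin. Its level was 442, 602 and 642 normalized counts in WT and 448, 462 and 551 in KO. WT 1 was the lowest of all 6 libraries, so pair 1 showed no lower value in KO, while pairs 2 and 3 did. The log2 fold change was -0.19 (SE 0.094; limma 95% interval -0.42 to 0.032), with -0.30 when pair 1 was left out and -0.099 when pair 2 was.

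No gene of the other lysosomal lists passed the test either. Of 7 other cathepsins 3 were tested: Ctse, an aspartic protease of immune cells, had 31.2, 30.3 and 38.5 normalized counts in WT and 20.8, 26.7 and 14.5 in KO, with a log2 fold change of -0.70 (SE 0.30). Ctso had -0.13 (SE 0.12) and Ctsl, whose product is an endopeptidase related to that of Ctss, 0.17 (SE 0.35). Ctsf, Ctsg, Ctsk and Ctsw were too low to test.

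Among 35 tested lysosomal hydrolases and activators outside the 10 genes, 27 had a negative and 8 a positive log2 fold change, with a median of -0.13. In all 3 pairs 14 were lower in KO and 4 higher, beside 1616 lower and 1442 higher of all 12322 genes. An unadjusted p under 0.05 was reached by 5, all with lower values in KO. Gm2a, which encodes the activator of ganglioside GM2 breakdown, had 367, 384 and 474 normalized counts in WT and 322, 251 and 337 in KO, with a log2 fold change of -0.43 (SE 0.10) and a limma adjusted p of 0.737. Ppt1, a thioesterase that removes palmitate from proteins, was at -0.32, Glb1, the beta-galactosidase of the Ctsa complex, at -0.22, and Npc2, a cholesterol carrier of the lysosomal lumen, at -0.20. Lipa, the lysosomal acid lipase, named here after its value was seen, was at -0.31. The 4 genes higher in all pairs, named for the same reason, were Arsb, Galc, Manba and Plbd2, at 0.38, 0.21, 0.10 and 0.20.

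Of 16 lysosomal membrane proteins 13 had a negative log2 fold change, with a median of -0.13. Npc1, the membrane partner of Npc2, had the lowest p of this list, with a log2 fold change of -0.37 (SE 0.11) and a limma adjusted p of 0.957. Cd68 was at -0.50 (SE 0.21) and Laptm4b at -0.42, whereas Laptm5, the most abundant of these with a mean of 3032 normalized counts, was at 0.040. The V-ATPase, the proton pump that acidifies the lysosome, had 11 of 16 subunits below 0 and a median of -0.068, from values such as -0.20 (SE 0.071) for Atp6ap1 and 0.21 for Atp6v0c.

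The genes that sort lysosomal enzymes and those that regulate lysosomal transcription stood near 0. Of 13 tested sorting genes 7 had a negative and 6 a positive log2 fold change, none pointed the same way in all 3 pairs, and the median was -0.027. M6pr, which encodes the cation-dependent mannose 6-phosphate receptor, had 2795, 2982 and 3116 normalized counts in WT and 2687, 3184 and 2869 in KO. Of 8 tested genes of the TFEB group 4 were below 0 and 4 above, with a median of 0.0049, and Flcn, a regulator of TFEB through mTORC1, was at -0.19 and Mtor at 0.037. Tfeb had 477, 521 and 444 normalized counts in WT and 462, 528 and 511 in KO, a log2 fold change of 0.058 (SE 0.080), and Tfe3 was at 0.025; both are named for their role and not by the rule for named genes. Promoter windows of 6 of 11 sorting genes (54.5%) and of 7 of 29 hydrolase genes (24.1%) held CACGTG, as did those of 2 of 5 other cathepsins (40%), 4 of 11 V-ATPase genes (36.4%) and 4 of 13 membrane protein genes (30.8%), beside the 8.09% of all genes.

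Of the 7 tested protease inhibitors 4 had a negative and 3 a positive log2 fold change, with a median of -0.19, and 2 had an unadjusted p under 0.05. Cst7, cystatin F, which restrains cathepsins inside endosomes, was at 381, 316 and 638 normalized counts in WT and 325, 214 and 351 in KO, a log2 fold change of -0.55 (SE 0.13; limma adjusted p = 0.737). Cst3, cystatin C, a secreted inhibitor, was at 381, 273 and 354 in WT and 224, 251 and 232 in KO, with no overlap and a log2 fold change of -0.50 (SE 0.13; limma adjusted p = 0.872).

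**Figure D3:**
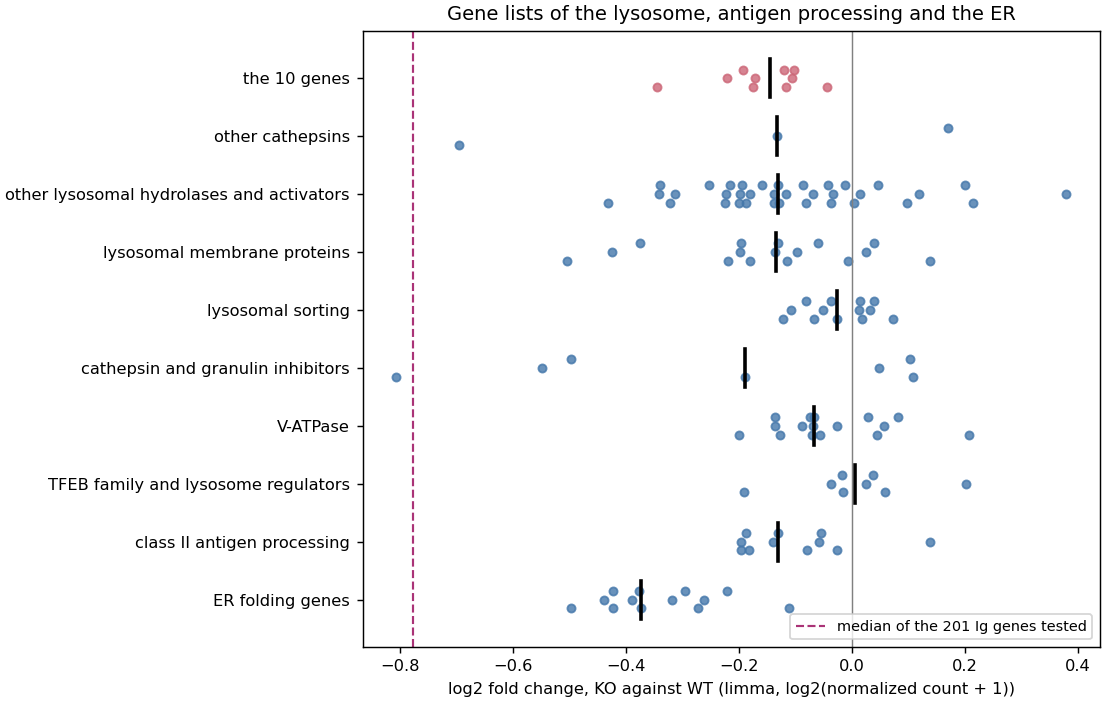
Log2 fold change (KO minus WT) of every tested gene in the 10-gene group, the other lysosomal lists, the class II antigen processing genes and the ER folding genes. Points are genes, black bars are list medians and the dashed line is the median of the immunoglobulin genes, -0.78. The medians of the 10 genes, the other cathepsins, the hydrolases, the membrane proteins and the class II genes lie between -0.15 and -0.13, and the ER folding genes lie lower at -0.37.

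The class II antigen processing genes include Cd74, on whose product the cathepsins act. Of 11 genes 10 had a negative log2 fold change, with a median of -0.13, and 7 were lower in KO in all 3 pairs. Cd74, the invariant chain, had 24512, 25157 and 27571 normalized counts in WT and 20539, 22687 and 24941 in KO, with a log2 fold change of -0.18 (SE 0.072). H2-Aa, H2-Ab1 and H2-Eb1, which encode class II chains, were at -0.20, -0.19 and -0.20, and H2-Oa, a subunit of a modulator of peptide loading, was the exception at 0.14.

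The genes of folding in the endoplasmic reticulum, through which lysosomal and secreted proteins pass, lay further below 0. All 13 were lower in KO in all 3 pairs, with a median of -0.37, though this list was chosen with earlier results of these libraries known. Hspa5, the main chaperone of the lumen, was at -0.39 (SE 0.080), Ppib, a prolyl isomerase, at -0.44 (SE 0.084), and the chaperone-associated Sdf2l1 and Pdia4 at -0.50 and -0.30. In limma each had an adjusted p of 0.693, while DESeq2 gave adjusted p-values of 0.0306 for Hspa5 and 0.0494 for Ppib. The 201 tested immunoglobulin genes had a median of -0.78, with Igkc at -0.90 and Ighg1 at -0.97, and 156 were lower in KO in all 3 pairs. No test was made of the difference between these lists and the 10 genes.

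**Figure D4:**
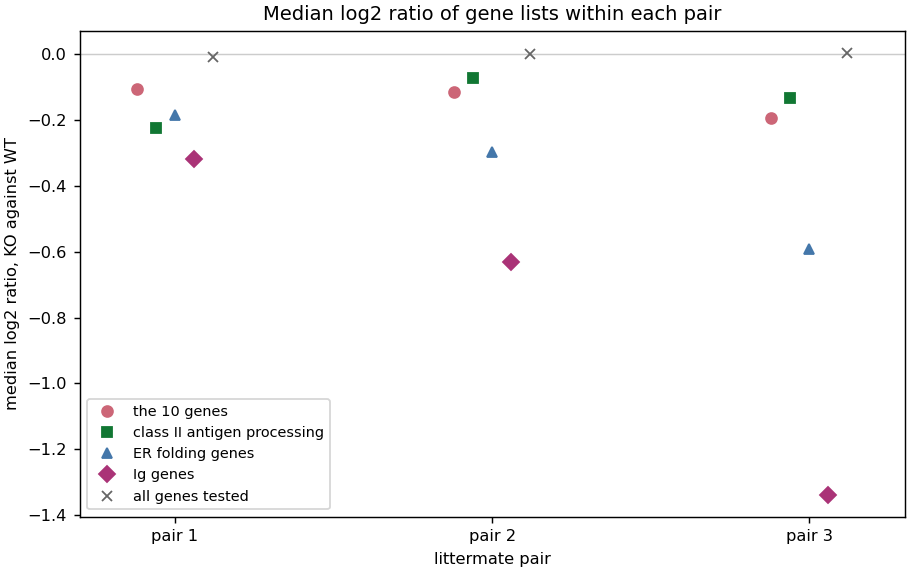
Median log2 ratio of KO to WT in each littermate pair for the 10 genes, the class II antigen processing genes, the ER folding genes, the immunoglobulin (Ig) genes and all genes tested (crosses, near 0). Each point is 1 list in 1 pair. The 3 points of the 10 genes lie between -0.19 and -0.11, and those of the immunoglobulin genes between -1.34 and -0.32.

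The plot of list medians by pair separates these lists by their spread between pairs. For the immunoglobulin genes the pair medians were -0.32, -0.63 and -1.34, and for the ER folding genes -0.18, -0.30 and -0.59, so pair 3 was lowest in both. The 10 lysosomal genes had -0.11, -0.11 and -0.19, a narrower range with pair 3 again lowest. The class II genes had -0.22, -0.072 and -0.13, with pair 1 lowest. In pair 3 the summed plasma cell markers also had their lowest ratio, -0.79 on the log2 scale, compared with 0.53 and 0.026 in pairs 1 and 2. This sum includes Jchain, which the paper assayed among its immunoglobulin mRNAs, so it does not follow plasma cells alone. In pairs 1 to 3 Jchain had log2 ratios of 0.42, -0.24 and -1.57, and Xbp1, also in the sum, 0.72, 0.24 and -0.40. The summed B cell markers had ratios of -0.11, -0.14 and 0.24 in pairs 1 to 3, highest in pair 3. For the summed macrophage and monocyte markers these ratios were 0.68, -1.79 and -0.071, lowest in pair 2. KO 2 held 3 fragments of Lyz2 and 15 of Adgre1. Pair 2 gave the lowest ratio for 2 of the 10 genes, Grn and Lgmn, and the highest for 5. The summed dendritic cell markers were higher in KO in all 3 pairs, with ratios of 0.15, 0.64 and 0.38. Only Flt3 and Zbtb46 of that list averaged 10 or more normalized counts, so this sum rests mainly on them. Flt3 had a log2 fold change of 0.47 (SE 0.14, limma adjusted p = 0.930). The part of these markers in the lysosomal values was not tested.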

How the data were processed

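Per the labels and the study's methods, the authors trimmed reads with cutadapt, aligned them to GRCm38/mm10 with STAR 2.6.1a, and counted fragments on exons of Gencode genes by strand with featureCounts (Subread 1.6.3). The deposited values are a normalized signal, gene counts that the authors divided by DESeq2 size factors; dividing by what 1 fragment was worth in each library gave whole numbers for 100% of values (tolerance 0.001). From these, log2(normalized count + 1) was fitted with limma 3.58.1 in R 4.3.3 (lmFit and eBayes with trend) for the 12322 genes averaging 10 or more. Genotype and replicate number were the terms, with Benjamini-Hochberg adjustment at 0.05. The labels give each KO and WT library a batch number, and the study's methods state that each replicate came from littermates. Litter and batch therefore cannot be told apart, and a pair stands for both. Deviations from the group means correlated at 0.328, 0.685 and 0.170 within pairs 1 to 3. Each animal gave 1 library. With 3 pairs an exact permutation test cannot go below p = 0.25, so none is given. Recovered whole counts were also tested with edgeR 4.0.16 and DESeq2 1.42.0. On simulated data the limma fit recovered 15 of 68 genes changed by 0.5 on the log2 scale and 61 of 66 changed by 1. It also called 21 unchanged genes. Changes as small as those of the 10 genes were not simulated.

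The 10 genes and the lists were chosen with earlier results of these data known. Besides the 10 genes and Tent5c, the genes named in each list were the 3 with the smallest limma p among those with the same sign in all 3 pairs and the one with the highest mean, in marker lists the 2 with the highest mean, and Igkc, Ighg1, Hspa5 and Ppib for reference; Ctsl, H2-Oa and those the text marks were named outside this rule, after their values were seen. Some genes of these lists are not reported here. Gene positions came from the Gencode annotation of GRCm38; 54409 of 54446 listed genes matched it. The alternatives were another scaling (trimmed mean of M values, total count, quantile, median ratio without immunoglobulin genes), other pseudocounts and filters, no replicate block, the count tests and leaving out each pair. The median without Ctsd was added after the data were seen. A normalization to a common median was part of the deposited values, so differences shared by most transcripts are not visible.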

Additional observations from a re-analysis of the deposited data

How the results depend on the processing

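All 10 genes kept a negative log2 fold change and none was called under any of the alternatives run, and their median lay between -0.15 and -0.11. The value nearest 0 came from scaling to total counts, which moved the median of all genes by 0.034; the number of the 10 genes with an unadjusted p under 0.05 in limma was then 1 in place of 3. Without the replicate block, that is with the littermates unpaired, the median of the 10 genes was again -0.15, and 2 of them had such a p. Leaving out Ctsd, the lowest of them and the one with shared exon bases, gave a median of -0.12 over 9 genes. The count of all genes called changed: limma called 0, at an unadjusted p under 0.05 it had 373 lower and 206 higher, and DESeq2 with the same block called 23, of which 22 were lower in KO. Leaving out 1 pair gave 0 to 171 called genes, with 171 (168 lower, 3 higher) without pair 1, 1 without pair 2 and 0 without pair 3; the 10 genes were not among them, and the cause was not tested. With 3 pairs the limma standard error of the 10 genes was 0.056 to 0.11 on the log2 scale, and the counting error of a single ratio was 0.041 to 0.12.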
